A study of Drosophila melanogaster with 2 samples.

Results

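The genes described are those for the proteins of the cytosolic ribosome of Drosophila melanogaster. They were chosen by name: protein-coding genes of the annotation whose symbol starts with RpL or RpS followed by a digit or P, leaving out names that end in -like. This gave 87 of 13945 protein-coding genes, 50 of the large subunit (RpL) and 37 of the small subunit (RpS). The data were chromatin immunoprecipitation and sequencing (ChIP-seq) of Daughterless (Da) in whole embryos of 0 to 24 h, both sexes pooled, from a stable transgenic line, da-eGFP, that expresses da with eGFP at its C-terminus, precipitated with an antibody against GFP. There was a single group of 2 biological replicates, numbered 2 and 3, and no second genotype or treatment. The authors' processed files are peak lists in the genome build dm6, with a signal per region, a measure of the height of enrichment whose scale the sources used here do not define. Here a gene with a peak is one with at least 1 transcription start site (TSS) no further than 500 bp from a summit in the authors' thresholded list of 1941 regions. Genes without such a peak were looked up in the relaxed list of 30000 pooled regions, which holds peaks together with background.

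Ribosomal proteins build the large subunit, which joins amino acids, and the small subunit, which reads the messenger RNA. Their genes are active in nearly all cells, and in flies the loss of 1 copy of many of them gives the Minute phenotype of slow growth and short bristles. Their promoters in Drosophila are known for a pyrimidine-rich start called the TCT initiator, used in place of the common initiator, and some carry the DNA replication-related element (DRE, bound by Dref) or Motif 1 (bound by M1BP). Daughterless is a basic helix-loop-helix protein that binds E-boxes, CANNTG, as a dimer with itself or with a tissue-specific partner. Da is best known for its roles in sex determination and in the development of the nervous system and muscle.

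Promoters of 14 members show which of these elements lie at the starts of the genes. Each sequence runs 5′ to 3′ on the gene's own strand from 100 bp before to 20 bp after a TSS, in dm6 coordinates and read from the Release 6 assembly. For genes with a peak this is the TSS nearest to the summit, and otherwise the TSS furthest upstream. Capitals mark E-boxes (CANNTG), TATCGATA (the DRE) and GGTCACAC (the core of Motif 1) on either strand, and CTTT (the core of the TCT initiator) where its C lies within 5 bp of the TSS.

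The first 3 carry the E-box CAGCTG close to the summit.
RpS27, chr3R:25247494-25247614, minus strand: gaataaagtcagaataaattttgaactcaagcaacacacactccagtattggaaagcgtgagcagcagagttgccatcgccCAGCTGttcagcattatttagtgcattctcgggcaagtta
RpS21, chr2L:2855970-2856090, plus strand: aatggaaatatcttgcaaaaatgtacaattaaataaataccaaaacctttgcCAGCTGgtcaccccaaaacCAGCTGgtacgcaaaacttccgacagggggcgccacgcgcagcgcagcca
RpS14b, chrX:7934798-7934918, plus strand: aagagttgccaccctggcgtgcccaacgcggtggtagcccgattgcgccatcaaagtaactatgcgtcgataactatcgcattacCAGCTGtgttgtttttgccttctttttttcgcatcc
In RpS27 the hexamer begins 19 bp before the TSS and its centre lies 6.5 bp from the summit. In RpS14b that distance is 16.5 bp. RpS21 has 2 copies of the hexamer in the printed stretch, and the copy nearest to its summit, at 21.5 bp, lies just downstream of the stretch at chr2L:2856101-2856106.

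The next 3 carry the DRE, and RpL28 and RpS25 hold the TCT core as well.
RpL28, chr3L:3222940-3223060, minus strand: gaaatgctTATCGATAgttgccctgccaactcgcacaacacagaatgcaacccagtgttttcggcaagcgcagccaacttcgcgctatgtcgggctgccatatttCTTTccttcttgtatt
RpS10b, chrX:19597931-19598051, plus strand: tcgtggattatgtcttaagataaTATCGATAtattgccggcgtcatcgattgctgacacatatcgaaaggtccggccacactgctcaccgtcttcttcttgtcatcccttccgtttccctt
RpS25, chr3R:11216267-11216387, minus strand: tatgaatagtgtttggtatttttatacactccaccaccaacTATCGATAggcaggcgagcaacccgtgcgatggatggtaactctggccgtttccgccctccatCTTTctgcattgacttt

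RpL7 and RpLP0 carry the core of Motif 1 within 50 bp of the summit, RpL7 on the opposite strand.
RpL7, chr2L:10200904-10201024, plus strand: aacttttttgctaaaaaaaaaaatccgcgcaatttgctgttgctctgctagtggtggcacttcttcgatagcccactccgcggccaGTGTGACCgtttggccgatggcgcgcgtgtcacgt
RpLP0, chr3L:22075992-22076112, plus strand: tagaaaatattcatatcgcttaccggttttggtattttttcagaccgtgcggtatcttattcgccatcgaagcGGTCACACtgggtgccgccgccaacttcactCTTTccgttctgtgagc

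RpL23A and RpS27A rank among the 5 highest members and hold no DRE, core of Motif 1 or CAGCTG in this stretch. Both have the TCT core just downstream of the TSS, and RpL23A also has another E-box, CAACTG.
RpL23A, chr3L:1668634-1668754, minus strand: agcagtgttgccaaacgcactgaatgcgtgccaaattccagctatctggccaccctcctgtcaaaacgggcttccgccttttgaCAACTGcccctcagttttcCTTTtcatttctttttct
RpS27A, chr2L:10408252-10408372, plus strand: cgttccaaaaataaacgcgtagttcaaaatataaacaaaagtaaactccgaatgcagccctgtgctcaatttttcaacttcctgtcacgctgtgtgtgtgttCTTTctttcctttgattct

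The last 4 had no thresholded peak. RpS6 holds CAGCTG, a DRE and the TCT core together, RpS9 holds the core of Motif 1 and the TCT core, and RpL10Aa and RpS10a hold none of the elements in this stretch.
RpL10Aa, chr3R:15037266-15037386, plus strand: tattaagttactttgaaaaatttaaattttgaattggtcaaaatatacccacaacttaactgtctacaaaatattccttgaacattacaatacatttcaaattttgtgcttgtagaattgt
RpS6, chrX:7901311-7901431, minus strand: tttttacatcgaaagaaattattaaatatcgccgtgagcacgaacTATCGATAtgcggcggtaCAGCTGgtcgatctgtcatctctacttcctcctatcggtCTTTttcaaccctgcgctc
RpS9, chr3L:9511511-9511631, minus strand: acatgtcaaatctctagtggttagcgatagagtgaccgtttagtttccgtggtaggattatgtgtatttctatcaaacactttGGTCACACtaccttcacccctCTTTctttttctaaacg
RpS10a, chr3R:27652660-27652780, plus strand: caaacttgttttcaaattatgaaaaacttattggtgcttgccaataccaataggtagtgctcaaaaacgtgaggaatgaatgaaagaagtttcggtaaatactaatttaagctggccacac

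Most cytosolic ribosomal protein genes held a Da-eGFP peak at a start site. The thresholded list had a summit within 500 bp of a TSS at 51 of the 87 members (58.6%), against 1442 of all 13945 protein-coding genes (10.3%). The 51 genes had 51 distinct summits, so none was counted through a peak shared with another member. At 25 of the 51, a TSS of another gene also lay within 500 bp of the summit, so these peaks count for that gene too. Replicate by replicate, 48 members (55.2%) were reached by the 1941 highest regions of replicate 2, where 10.4% of all genes were. Replicate 3's own 1941 highest regions also reached 48 members (55.2%), against 9.97% of all genes. These shares describe fixed sets of genes and carry no test, since there is no second condition.

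The peaks at members also stood high in the list. Their median pooled signal was 121, against 90.9 for all 1442 genes with a peak at a TSS, and the quartiles of the 51 were 82.1 and 166. Of the 87 members, 11 (12.6%) were reached by the 200 highest thresholded regions, against 1.23% of all genes. The 500 highest reached 27 members (31.0%), against 3.08% of all genes. The lists hold no read counts, so depth is unknown. Of 30000 relaxed regions, 3568 passed a q of 0.01 in replicate 2 and 2964 did so in replicate 3. Signals of the pooled list are not on the replicates' scale, so values are compared within a list.

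**Figure D1:**
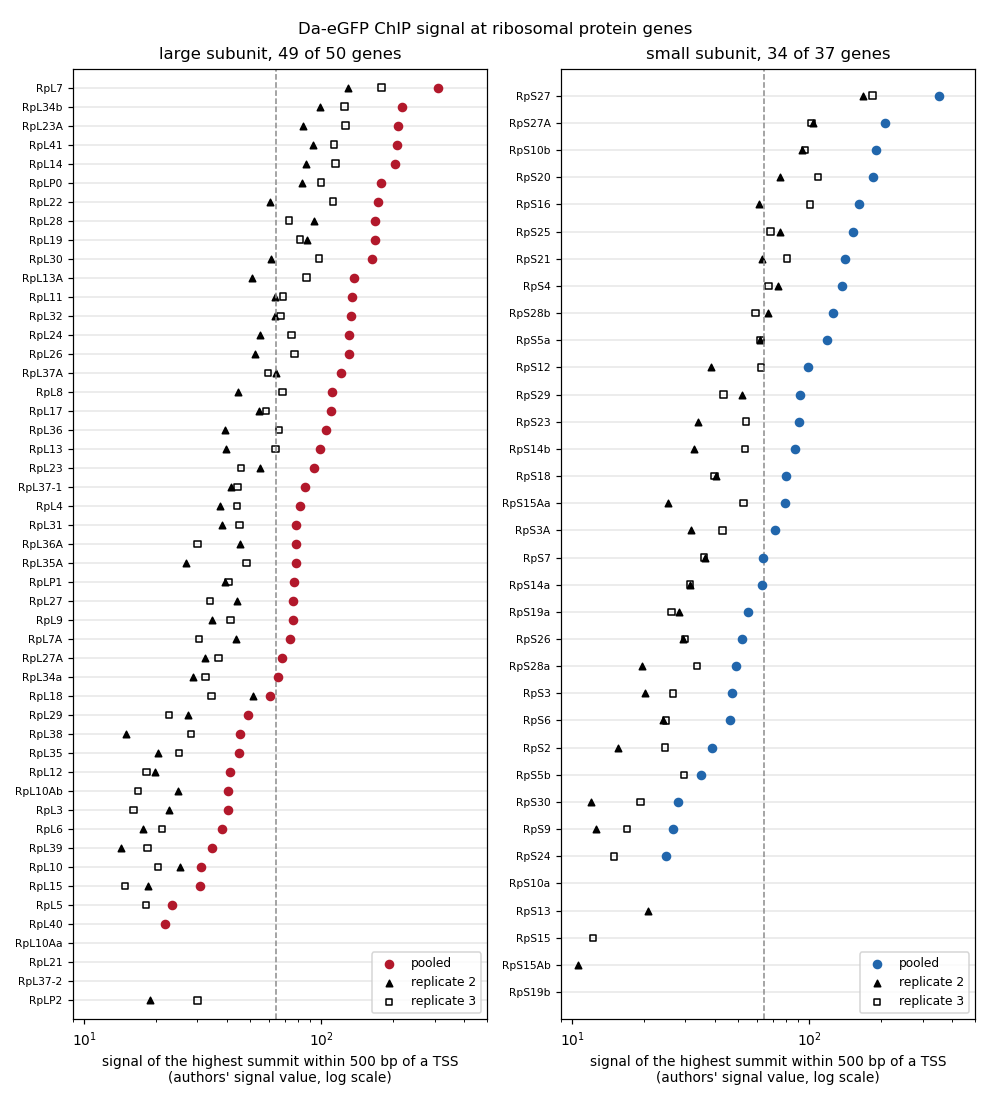
Signal of the highest summit up to 500 bp from a TSS for 83 of the 87 members, with large subunit genes on the left and small subunit genes on the right. Filled circles are the pooled list, triangles replicate 2 and open squares replicate 3 (log axis). The dashed line marks the lowest thresholded signal, 64.2, and 32 large and 17 small subunit genes of those drawn have their pooled value to the right of it.

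**Figure D2:**
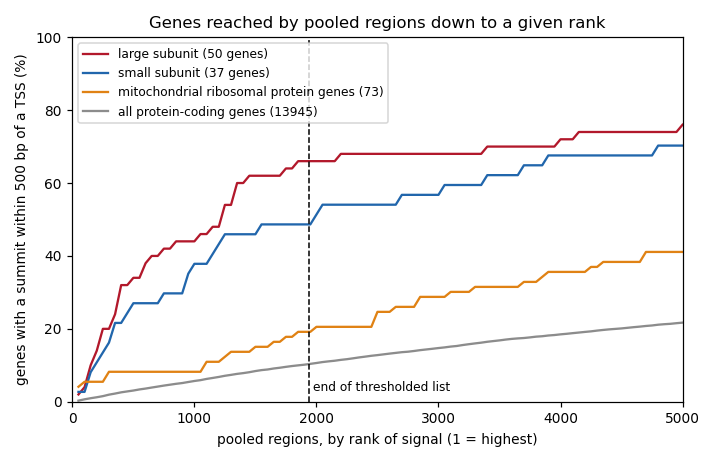
Percent of genes (vertical axis) that have a pooled summit at most 500 bp from a TSS, counting regions down to each rank of signal (horizontal axis). At the end of the thresholded list, at rank 1941, the curves stand at 66.0% for large subunit genes, 48.6% for small subunit genes, 19.2% for mitochondrial ribosomal protein genes and 10.3% for all protein-coding genes.

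Among large subunit genes, RpL7 had the highest signal. RpL7 had 129 in replicate 2 and 179 in replicate 3, and 310.0 in the pooled list (rank 45). Its summit was at chr2L:10201031-10201031, 27 bp downstream of the TSS. RpL34b had 98.7 in replicate 2 and 125 in replicate 3, and 218 pooled. RpL23A, near the exit of the tunnel through which the new chain leaves, had 83.3 in replicate 2 and 126 in replicate 3, and 211 pooled. All 3 had the higher value in replicate 3, each on its own list's scale.

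RpL41, which encodes the smallest protein of the ribosome, had 92.6 in replicate 2 and 113 in replicate 3, and 209 pooled. RpL14 had 86.5 in replicate 2 and 115 in replicate 3, and 204 pooled. The replicates ordered RpL34b, RpL23A, RpL41 and RpL14 differently, so the order of their pooled signals is not resolved.

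RpL22 had 60.9 in replicate 2 and 112 in replicate 3, and 173 pooled. RpL28 had 93.5 in replicate 2 and 73.0 in replicate 3, and 168 pooled. RpL22 was the higher in replicate 3 and RpL28 in replicate 2. The other large subunit genes with a peak ran from 65.6 for RpL34a to 168 for RpL19, and included RpL30 (164), RpL13A (137), RpL11 (134), RpL32 (133), RpL24 (131), RpL26 (130.5), RpL37A (121), RpL8 (111), RpL17 (109.5) and RpL36 (105) above a pooled signal of 100. Between 99.0 and 65.6 lay RpL13, RpL23, RpL37-1, RpL4, RpL31, RpL36A, RpL35A, RpLP1, RpL27, RpL9, RpL7A, RpL27A and RpL34a.

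Among small subunit genes, RpS27, which encodes a zinc finger protein, had the highest signal of all members, 168 in replicate 2 and 185 in replicate 3, and 352 pooled (rank 32 of 1941). RpS10b, whose protein sits in the head of the small subunit, had 92.8 in replicate 2 and 96.0 in replicate 3, and 191 pooled. RpS20, also a protein of the head, had 75.1 in replicate 2 and 109 in replicate 3, and 186 pooled. RpS27 was the highest member in either replicate. RpS16 (161), RpS25 (152), RpS21 (141), RpS4 (137), RpS28b (126) and RpS5a (119) followed by pooled signal. RpS12 (98.9), RpS29 (91.0), RpS23 (90.3), RpS14b (87.3), RpS18 (80.0), RpS15Aa (78.9) and RpS3A (71.7) lay below 100.

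The fusion genes RpS27A and RpL40, each of which encodes ubiquitin joined to a ribosomal protein, stood at opposite ends. RpS27A had 104 in replicate 2 and 102 in replicate 3, and 209 pooled. Its summit lay 19 bp before its TSS and as far from a TSS of Ip259, so the peak cannot be given to either gene alone. RpL40 had no thresholded peak. It was at 21.9 in the pooled list (rank 20862), with that summit 307 bp downstream of the TSS, and neither replicate's list held a region at its TSS.

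The stalk, which recruits translation factors to the large subunit, is made of the proteins of RpLP0, RpLP1 and RpLP2. RpLP0 had 82.6 in replicate 2 and 99.4 in replicate 3, and 178 pooled. RpLP1 had 39.2 in replicate 2 and 40.5 in replicate 3, and 76.4 pooled. RpLP2 had no region in the pooled list, and its regions in the replicates, at 18.9 in replicate 2 and 30.1 in replicate 3, lay on opposite sides of the TSS. The genes of this complex therefore ranged from rank 180 to no pooled region.

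Several cytosolic ribosomal proteins of flies are encoded by a pair of genes, and 8 such pairs are named by a final a or b. Only in RpL34 did both copies have a thresholded peak, RpL34b at 218 and RpL34a at 65.6. RpS10b had a peak at 191, and RpS10a had no region in any list. RpS28b had 66.9 in replicate 2 and 59.2 in replicate 3, and 126 pooled, against 19.8 in replicate 2, 33.5 in replicate 3 and 49.3 pooled for RpS28a, which was below the threshold. The lower copy was the one named a in these pairs.

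In the next pairs the copy named a was the higher. RpS5a, the widely used copy, had 61.9 in replicate 2 and 62.2 in replicate 3, and 119 pooled. RpS5b, which is used mainly in the germline, had no region in replicate 2, 29.7 in replicate 3 and 34.8 pooled. RpS15Aa had 25.3 in replicate 2 and 52.8 in replicate 3, and 78.9 pooled, and RpS15Ab had no pooled region and 10.6 in replicate 2. RpS19a was at 54.9, below the threshold, and RpS19b, another germline copy, had no region in any list at its TSS.

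RpS14a and RpS14b lie next to each other on X in the same orientation. RpS14b had 32.8 in replicate 2 and 53.6 in replicate 3, and 87.3 pooled, against 31.3 in both replicates and 63.2 pooled for RpS14a. Because the copies are nearly identical, reads inside them may not be assignable to either, and how the authors treated such reads is not given in the sources used here. Neither copy of RpL10A had a peak: RpL10Ab had 24.9 in replicate 2 and 16.9 in replicate 3, and 40.4 pooled, and RpL10Aa was in no list. RpL37-1 and RpL37-2, a further pair named after the values were seen, had 85.4 and no region. In all, 7 of these 16 lettered genes (43.8%) held a peak, against 44 of the other 71 members (62.0%) and 10.3% of all genes.

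The 36 members without a thresholded peak mostly had a weaker region at a TSS. In the full pooled list 77 of the 87 members (88.5%) had a summit within 500 bp of a TSS, against 51.6% of all genes, and this list reaches into background. Just inside the threshold, RpL34a had 28.7 in replicate 2 and 32.5 in replicate 3, and 65.6 pooled. RpL27A had 32.2 in replicate 2 and 36.8 in replicate 3, and 68.0 pooled. RpL7A had 43.7 in replicate 2 and 30.6 in replicate 3, and 73.8 pooled, after RpS3A at 71.7. These members were no higher in the single replicates than RpS7, the highest outside, except RpL27A and RpS3A in replicate 3 and RpL7A in replicate 2. Just outside it, RpS7 had 36.4 in replicate 2 and 36.1 in replicate 3, and 63.7 pooled. Its summit lay 83 bp before one TSS in replicate 2. In replicate 3 it lay 1 bp after another TSS, near the pooled summit, so the replicate values of RpS7 belong to different summits. RpL18 had 51.3 in replicate 2, at a summit 308 bp before the TSS, and 34.4 in replicate 3, at a summit 4 bp before it, with 60.6 pooled. RpS19a had 28.3 in replicate 2 and 26.3 in replicate 3, and 54.9 pooled. The gap in pooled signal between members inside and outside the list was thus small, and 7 members outside it (RpS7, RpS14a, RpL18, RpS19a, RpS26, RpS28a and RpL29) had a pooled q of 0.01 or less.

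Further down, members included RpS3, which sits at the entry of the messenger RNA channel (47.4), RpS6, the target of S6 kinase (46.4), RpL38 (45.5), RpL35 (44.8), RpL12 (41.2), RpL3 (40.3), RpS2 (38.8), RpL6 (38.0) and RpL39 (34.6). RpL10 (31.2), RpL15 (30.8), RpS30 (28.1), RpS9 (26.6), RpS24 (24.9) and RpL5 (23.5) were lower still. RpL5, whose protein joins the ribosome together with that of RpL11 and the 5S ribosomal RNA, had no region in replicate 2 and 18.2 in replicate 3, while RpL11 had 63.9 and 69.1. Of the 10 members with no pooled region at a TSS, 5 had a region in at least 1 replicate list, among them RpS13, RpS15, RpS15Ab and RpLP2, and RpL10Aa, RpL21, RpL37-2, RpS10a and RpS19b had none. Thresholded summits lay in or within 1000 bp of RpS13, RpS14a, RpS19b and RpS28a but over 500 bp from their TSSs, and that at RpS14a was the peak of RpS14b.

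The share of genes with a peak was higher in the large subunit than in the small subunit, by an amount that varied between replicates. In the thresholded list 33 of 50 large subunit genes (66.0%) and 18 of 37 small subunit genes (48.6%) had a peak, a difference of 17.4 percentage points. In the list of replicate 2 it was 64.0% of large and 43.2% of small subunit genes, or 20.8 points. In that of replicate 3 it was 58.0% and 51.4%, or 6.65 points. The mean difference was 13.7 ± 9.98 points (SD, n = 2), with the large subunit higher in both replicates, and no test was made of it. Among the 1000 highest thresholded regions the difference was 6.16 points, and among pooled regions with a q of at most 0.01 it was 7.84 points. Leaving out the 8 pairs of paralogs, a choice made after the values were seen, gave 31 of 46 large (67.4%) and 13 of 25 small subunit genes (52.0%).

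Median peak heights of the subunits were close. The median pooled signal was 121 in the 33 large subunit genes with a peak and 122 in the 18 small subunit genes with one. Their values overlapped over most of their range, from 65.6 to 310.0 in large and from 71.7 to 352 in small subunit genes.

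The 74 members in both relaxed replicate lists had a Spearman's rho of 0.88 between replicates and, on the log2 scale, a Pearson's r of 0.89, against 0.64 and 0.75 over 5392 genes in both lists. These sets were not matched for signal, as 58.6% of members but 10.3% of all genes held a peak. The difference in correlation is therefore not a result about members. Of the 51 genes with a peak, 43 were among the 1941 highest regions of both replicates, 3 of replicate 2 alone (RpL27, RpL36A and RpL7A), 4 of replicate 3 alone (RpL35A, RpS15Aa and RpS3A among them) and RpL34a of neither. Over these 51 genes the signals of the replicates gave a Spearman's rho of 0.78 and, on the log2 scale, a Pearson's r of 0.81, against 0.54 and 0.68 over 1435 genes with a peak; both sets were chosen by agreement between the replicates. The points share their library and its depth. Members with a peak had the higher median pooled signal, 121 against 90.9 for all genes with a peak. Their highest signal was lower, 352 against 877. The log2 ratio of replicate 3 to replicate 2 had a median of 0.25 and an SD of 0.39 over the 51, against 0.13 and 0.54 over the 1435. Replicate 3 was the higher at 38 of the 51 and replicate 2 at 13, each value on its own list's scale. The 1435 genes were also shifted toward replicate 3 (median 0.13), and the count was not made for them. It is therefore not a result about members.

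**Figure D3:**
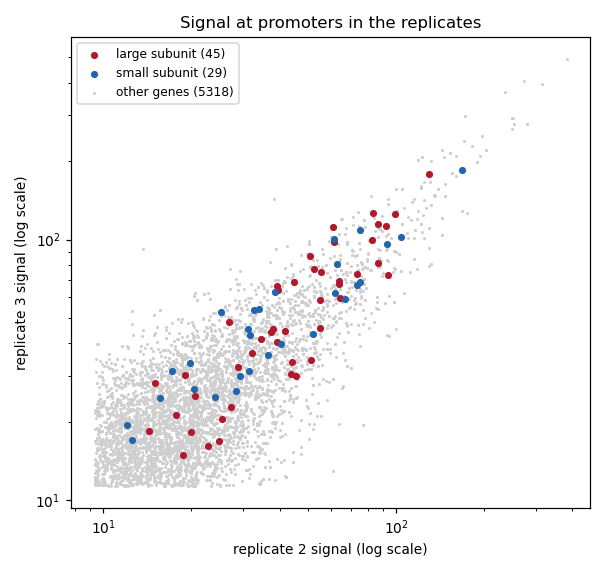
Signal of the highest summit up to 500 bp from a TSS in replicate 2 (horizontal) and replicate 3 (vertical), both on log axes, for 45 large and 29 small subunit genes and 5318 other genes found in both relaxed lists. The members run along the diagonal from the background cloud to signals over 100.

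The median summit at members sat closer to the start of transcription than that of all other genes with a peak. The median summit lay 39 bp upstream of the nearest TSS of its gene over the 51 members and 113 bp upstream over the 1391 other genes with a peak. Within 100 bp of a TSS lay 47 of the 51 summits (92.2%), against 38.7% of the 1391. The 5 further translation genes with a peak, named below, were as close, with a median of -28 bp and all 5 within 100 bp. Of the members' summits, 37 (72.5%) were upstream, and the furthest downstream was that of RpL26, at 82 bp. The replicates put the summit within 100 bp of the pooled one at 50 of the 51 genes, each with a median shift of 8 bp. RpLP1 was the exception, with its summit 19 bp upstream in replicate 2 and 123 bp upstream in replicate 3.

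A peak between divergent genes is counted for both, which lengthens the distance for the farther gene. When each summit was given only to the gene with the nearest TSS, the medians were 34 bp upstream for members and 82 bp for other genes. At 1 of the 51 members with a peak, a start of a different gene lay closer.

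**Figure D4:**
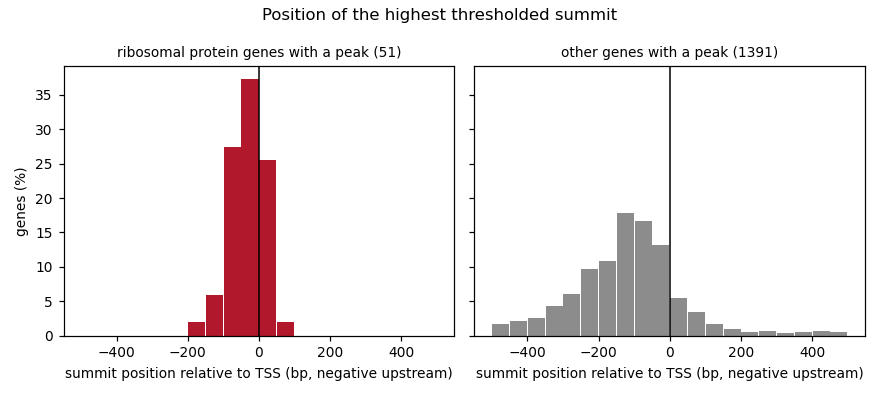
Position of the highest thresholded summit relative to the nearest TSS of its gene in bins of 50 bp, as a percent of genes, for 51 ribosomal protein genes with a peak (left) and 1391 other genes with a peak (right). Of the members' summits 47 lie within 100 bp of the TSS, while other genes fill the whole window of 500 bp on either side.

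CANNTG, any E-box, was about as frequent at members' summits of the pooled list as at all promoter peaks and in the lowest pooled regions. Within 50 bp on either side of the summit, CANNTG on either strand was present at 21 of 51 members (41.2%), against 41.5% of the 1069 thresholded summits within 500 bp of any TSS. The 1941 lowest pooled regions held it at 44.6%. By the replicates' own lists it was at 20 of 48 members' summits in replicate 2 and 15 of 48 in replicate 3. The share at all promoter summits was not counted in those lists. CAGCTG, one form of CANNTG, was at 4 of 51 (7.84%), against 10.7% of the 1069 and 6.13% of the 1941. The 4 were the small subunit genes RpS27, RpS16, RpS21 and RpS14b, and none of the 33 large subunit summits held it, which allows a share of up to 9.09%. Within 100 bp on either side the count stood at 4 of 51, against 19.1% of the 1069. Over whole promoters, the 300 bases from 250 bp before each gene's first TSS, CAGCTG was in 8.05% of the 87 members, against 54.8% of 73 mitochondrial ribosomal protein genes and 17.7% of all genes.

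Elements of constitutive promoters were more frequent at members' summits than at all promoter summits. TATCGATA, the DRE, was within 50 bp of the summit at 13 of 51 members (25.5%), against 4.58% of the 1069 promoter summits and 0.618% of the 1941 lowest pooled regions. Its centre lay a median of 14.5 bp from the summit, and the 13 genes included RpL19, RpL27, RpL28, RpL36, RpL36A, RpL37-1, RpL41, RpS10b, RpS12, RpS15Aa, RpS25 and RpS29. GGTCACAC was at 5 of 51 (9.80%), against 1.68% of the 1069, in RpL7, RpL27A, RpL30, RpL37A and RpLP0. The medians of GC content in these windows were 46.5% at members' summits, 38.6% at the 1069 and 46.5% in the 1941 lowest pooled regions. Members' summits lay nearer the TSS than those of other genes, so these windows cover different parts of promoters. Over whole promoters the DRE was in 29.9% of members, 20.5% of mitochondrial ribosomal protein genes and 9.36% of all genes. For GGTCACAC these shares were 14.9%, 11.0% and 7.70%, so mitochondrial ribosomal protein genes lay between members and all genes for both.

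The TCT core was frequent in members with and without a peak. CTTT on the sense strand with its C within 5 bp of any annotated TSS was present in 57 of 87 members (65.5%), against 8.07% of all genes and 5.48% of mitochondrial ribosomal protein genes. With the gene's first TSS alone it was in 35.6% of members and 5.64% of all genes. At any TSS it was in 35 of the 51 members with a peak (68.6%) and 22 of the 36 without (61.1%), but at the first TSS alone in 31.4% of those with a peak and 41.7% of those without. Members with a peak had a median of 2 annotated TSSs, and those without had 1. Counting any TSS, a peak was present at 35 of the 57 members with the core (61.4%) and 16 of the 30 without it (53.3%). Among all other genes, 13.3% of the 1068 with the core and 9.77% of the rest held a peak. TATAAA starting 40 to 20 bp before a TSS was found in 1 member, RpL39, against 9.40% of all genes.

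**Figure D5:**
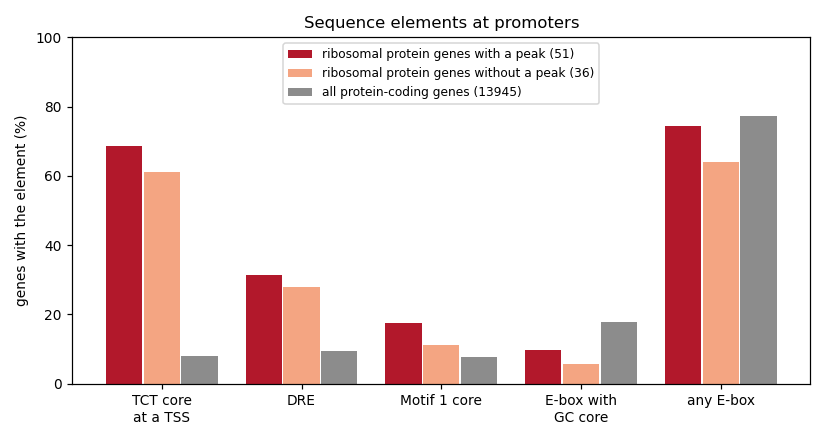
Percent of genes with each element for 51 members with a peak, 36 members without and all 13945 protein-coding genes. The TCT core is counted at any TSS and the other elements in the 300 bases from 250 bp before the first TSS, where the DRE was in 31.4% of members with a peak, 27.8% of those without and 9.36% of all genes.

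Members held peaks both with and without a close neighbouring start. A divergent partner, meaning a TSS of another gene on the opposite strand within 1000 bp upstream, was present at 34 of the 51 members with a peak (66.7%) and 18 of the 36 without, against 66.6% of all genes with a peak and 32.7% of all genes without. Of all genes with such a partner 19.0% held a peak, and of those without one 5.42%. Among members the shares were 65.4% of the 52 with a partner and 48.6% of the 35 without. Members without a partner and with a peak included RpL23A, RpS10b, RpL22 and RpL30, whose nearest other TSS was from 1391 to 4750 bp away from the summit. Partners of the strongest members were Nup37 at RpS27, Ripalpha at RpL7 and CG8132 at RpL34b, and at RpL13 it was Dref, the gene for the protein that binds the DRE.

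Members on each chromosome arm had peaks, from 9 of 19 on 2R, where 10.6% of all genes did, to 10 of 14 on X, where 8.15% of all genes did, among the large arms. RpS3A, on chromosome 4, had 31.7 in replicate 2 and 43.0 in replicate 3, and 71.7 pooled. Only 3 of the 80 protein-coding genes of that chromosome held a peak at a TSS.

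Other genes of the translation machinery, taken as whole lists, had peaks in shares between those of members and of all genes (10.3%). Of 73 mitochondrial ribosomal protein genes, whose products form the separate ribosome of the organelle, 14 (19.2%) had a peak, with a median summit 138 bp upstream of the TSS. All 14 were among the 58 with a divergent partner (24.1%, against 19.0% of all genes with one). None of the 15 without a partner had a peak. From a list of further genes, 5 of 23 (21.7%) had one: 4 elongation factor genes and Fib, which encodes the methyltransferase fibrillarin of ribosomal RNA processing. The gene eEF1gamma had 99.1 in replicate 2 and 77.1 in replicate 3, and 176 pooled. For eEF1alpha1 the values were 36.2 in replicate 2 and 58.5 in replicate 3, and 96.1 pooled. The gene eEF2 had 29.1 in replicate 2 and 57.9 in replicate 3, and 85.4 pooled. Like eEF1alpha1, it had the higher value in replicate 3, and eEF1gamma in replicate 2, each on its own list's scale. For eEF5 the values were 42.2 in replicate 2 and 39.1 in replicate 3, and 65.3 pooled. Fib had 50.1 in replicate 2 and 48.9 in replicate 3, and 97.2 pooled. The ribosomal protein gene sta, which the naming rule misses, and Rack1, which encodes a protein bound to the small subunit, were at 51.1 and 50.3, below the threshold. These lists were chosen with earlier results of the data known, and the differences in share between lists were not tested.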

How the data were processed

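Binding was measured by ChIP-seq with an antibody against GFP in 2 biological replicates of whole embryos, 0 to 24 h, sonicated to fragments of 200 to 800 bp per the labels. The authors deposited relaxed region lists per replicate and for pooled reads, and a list thresholded on the irreproducible discovery rate (IDR), which ranks regions by agreement between replicates. Per the notes deposited with the lists, the thresholded list was derived from both replicate lists and the pooled list, and each list also from a control, which was not analysed here. Each region's signal (a measure of enrichment whose scale belongs to its list) and −log10 q value were deposited by the authors. The −log10 q values reach a ceiling of 3.54, which 1731 thresholded regions and 50 of the 51 members' peaks share, so regions were ranked by signal. For the caller, the aligner and the threshold on IDR: not given in the sources used here. Lists in dm3 were not used, as no annotation of that build was at hand.

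Genes and TSSs were taken from Ensembl release 115 (BDGP6.54) on arms 2L, 2R, 3L, 3R, 4 and X, and sequence from the Release 6 assembly, which dm6 coordinates follow. For each gene the summit of highest signal within 500 bp of any TSS was taken from each list, and replicate values come from each replicate's own list. Motifs were searched as letters on both strands, CTTT and TATAAA on the sense strand; CAGCTG is one form of CANNTG, and no other pair overlaps by definition. A match of letters is not a measured binding site. A count of 0 was given the share that 3 counts would make as its limit, which covers counting error only. No tests were made, as there is a single group; the replicates' spread may be technical, and depth is unknown. Joins and searches were tested on simulated data (Python 3.11.15, pandas 2.3.3, numpy 2.4.6, scipy 1.17.1).

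Members and lists were chosen with earlier results of these data known. Named with values in each replicate were the 12 highest members, the 4 lowest with a peak, the 4 highest without one, stalk and ubiquitin fusion genes, and pairs of paralogs, and of the list of further translation genes those with a peak. The listed symbol eEF3 has no entry in the annotation under that name. Results of 4 members are not reported here by name, though these members are in all counts and medians.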

Additional observations from a re-analysis of the deposited data

How the results depend on the processing

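No paired analysis was possible because there is a single group of 2 replicates. The number of members with a peak was 51 and stayed between 36 and 58 under all 11 alternatives. These were summits within 200 or 1000 bp, the 1000 highest regions (36, with 5.69% of all genes), pooled regions with a q of 0.01 or less (58, with 17.2% of all genes), each replicate's own list, the first TSS alone, the nearest gene alone, regions covering the TSS, names ending in -like, and pairs of paralogs left out, the last chosen after seeing the data. The set of members itself changed with -like names, giving 52 of 92, and without the pairs, giving 44 of 71. The excess of the large over the small subunit kept its sign in all 11, from 6.16 points in the 1000 highest regions to 20.8 points, and was 6.65 to 20.8 points with either replicate left out. The median signal was 139 in the 1000 highest regions and 107 at a q of 0.01 or less; the replicates' own scales gave 58.1 to 67.3. The median summit position was -31 bp at a q of 0.01 or less, -29 to -27 bp with either replicate left out, -22 bp from the first TSS, -34 bp with the nearest gene alone, -34 bp with regions covering the TSS and -27 bp without pairs of paralogs. CANNTG was at 13 summits within 25 bp and at 33 within 100 bp, as shorter or longer windows hold fewer or more hexamers. GGTCACAC was at 3 summits within 25 bp, and at 3 to 6 with either replicate left out. CTTT within 2 bp of a TSS was in 20 members, a narrower reach. For the other changes the cause was not tested.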

Other observations

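Some members without a strong peak lie near the centromeres, where RpL5, RpL15 and RpL38 are known as genes of the heterochromatin; they were chosen after their values were seen. RpL5 (2L, 22532279 to 22536884) had a pooled signal of 23.5, RpL15 (3L, 27267255 to 27268445) 30.8 and RpL38 (2R, 4515388 to 4516458) 45.5. RpL21 (2L, 22247111 to 22247875) had no region in any list. The share of all genes near the centromeres with a peak was not counted, so this position is not a result about members.

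Of the 5 genes with names ending in -like, RpLP0-like, on 2R, had a peak at 134 pooled, 73.1 in replicate 2 and 65.8 in replicate 3, with its summit 66 bp upstream of the TSS. RpL24-like was at 33.6 and RpL7-like at 29.8, both below the threshold, and RpL22-like and RpS28-like had no region in any list.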
